A study of Mus musculus with 764 samples.

Results

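Genes of the tumour necrosis factor (TNF) superfamily and its costimulatory receptors were read cell by cell in CD4+ T cells. The cells had been sorted for an IL-10 reporter and came from the small intestine (SI) and the spleen. The members were 10 of the 23997 gene rows of the count tables, taken by name: 4 receptors (Tnfrsf1b, Tnfrsf9, Cd27 and Cd28) and 6 ligands (Tnf, Lta, Cd40lg, Tnfsf8, Tnfsf10 and Tnfsf11). Each of the 10 had a row in both tables. Cd28 belongs to the immunoglobulin superfamily and was listed with the others because it is the classical costimulatory receptor of T cells.

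TNF ligands are mostly membrane proteins that act as trimers on receptors of a neighbouring cell. Receptors such as TNFR2, 4-1BB and CD27 recruit TRAF adaptor proteins and feed NF-kB signalling, which sustains survival and division after the T-cell receptor has been engaged. Other pairs of the family act on other cells. CD40 ligand licenses B cells and dendritic cells, TRAIL and FasL can trigger cell death, and RANKL drives osteoclasts and lymphoid tissue development. Resting and central memory T cells carry CD27 and CD28, and CD27 can be lost after repeated stimulation.

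All cells came from IL-10eGFP Foxp3mRFP double reporter mice given anti-CD3, an antibody that engages the T-cell receptor, and no cells of untreated mice were analysed here. Cells had been sorted for eGFP, which reports Il10, and SMART-seq2 libraries, which cover whole transcripts and carry no molecular identifiers, were made from single cells. The labels gave neither an animal nor an age. Each tissue was therefore 1 sample, and no comparison has a replicate check. Spleen cells filled 3 sets of wells, named here spleen A (p1, columns 1 to 12), spleen B (p1, columns 13 to 24) and spleen C (p2, columns 1 to 12). The SI cells were labelled p2, columns 13 to 24. The labels do not say what p1 and p2 are, or whether p2 was the same plate for both tissues. The sets show how far cells of 1 tissue can differ, but they are not replicates. Among p2 cells, tissue and well columns cannot be told apart.

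After limits on depth and removal of cells called S or G2M, 400 spleen cells and 71.6% of the 190 SI cells were kept of 764 cells in all. In spleen A 59 cells were removed and 69.3% kept, in spleen B 45 were removed and 76.3% kept, and in spleen C 70 were removed and 63.5% kept. Kept cells held 162801 to 622997 reads, with medians of 324841 in SI and 315921 to 366140 in the spleen sets. Of 5 T cell marker genes, Cd3e, Cd3d, Cd3g and Cd4 had at least 10 reads in 97.9% to 100% of cells of every set. Cd2, an adhesion receptor of T cells, had them in 67.6% of SI cells and 96.7% to 99.2% of spleen cells, and its mean was lower in SI (log2 ratio -2.20). Of 17 B cell, myeloid and epithelial marker rows none reached a mean of 10 CPM (reads of a gene per 1000000 reads of the cell) in any set except Cd79b, Cd68 and Epcam. Cd68 had at least 10 reads in 31.6% of SI cells and in 8.27% to 15.2% of cells of the spleen sets, beside the receptor and ligand differences below. Of 6 NK and innate lymphoid genes, Kit had a mean of 24.9 CPM in SI and at most 0.211 CPM in the spleen sets, with at least 10 reads in 8.09% of SI cells and in no spleen cell. Ncr1, which defines NK cells, had no read in SI, and the summed level of the 6 genes was 132.4 CPM in SI and 109.2 to 190.4 CPM in the spleen sets. The part of Cd68 and Kit cells in the differences was not tested. Foxp3, which directs the regulatory T cell fate, had at least 10 reads in 54.1% of cells of spleen A (72 cells), 13.1% of spleen B (19 cells), 4.1% of spleen C (5 cells) and 3.68% of SI cells (5 cells). The study included Foxp3+ cells as a control and the labels do not mark their wells, so shares and numbers per cell of spleen A that moved out of their interval, or to another order among the sets, without cells that had a Foxp3 read (48 of its cells were left) are given both ways.

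The upstream sequences of 3 members are shown, of a gene lower in SI (Cd27), of the ligand higher in SI (Tnfsf10) and of the receptor called higher both in Foxp3 cells and in Il10 cells of the spleen (Tnfrsf1b). They are RefSeq sequences of build GRCm38.p6, bases -250 to -111 from the annotated start, read 5′ to 3′ on the strand of the gene and outside its annotated span. RefSeq promoter entries matched 8 of the 10 members. There was none for Cd28 and Cd40lg, and the windows of Tnfsf8, Lta and the second start of Tnfrsf9 overlapped the annotated span of the gene, in part or whole, and are not shown. Capitals mark the only motif match in these windows. The Cd27 window is chr6:125237138-125237277 (minus strand), the Tnfsf10 window chr3:27316827-27316966 (plus strand) and the Tnfrsf1b window chr4:145246981-145247120 (minus strand).
Cd27: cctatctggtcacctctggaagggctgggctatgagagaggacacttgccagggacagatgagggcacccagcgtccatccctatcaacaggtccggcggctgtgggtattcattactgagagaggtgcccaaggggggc
Tnfsf10: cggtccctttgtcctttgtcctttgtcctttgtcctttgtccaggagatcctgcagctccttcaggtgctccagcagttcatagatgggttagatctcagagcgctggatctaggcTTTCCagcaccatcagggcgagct
Tnfrsf1b: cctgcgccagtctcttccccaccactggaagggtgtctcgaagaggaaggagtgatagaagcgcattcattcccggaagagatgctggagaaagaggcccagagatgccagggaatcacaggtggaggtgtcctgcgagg

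Both strands were searched for 5 letter patterns: a kB pattern (GGGNNNNNCC, for NF-kB), AP-1 (TGANTCA), an NFAT core (GGAAA), a TCF/LEF core (CTTTGA) and a forkhead pattern (TGTTTAC). The one match was the NFAT core on the opposite strand of Tnfsf10, bases -134 to -130. Such a core stood in 38% of all 32851 promoter windows of this length, and the kB pattern in 25.7%. Among the other members, the kB pattern matched upstream of Tnf (bases -194 to -185) and at 2 places upstream of Tnfsf11. Tnf and Lta lie side by side on chromosome 17, at 35199367 to 35202007 and 35203165 to 35205578, with 1157 bases between them.

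The receptors came first. Cd27 and Cd28 were lower in SI cells than in each spleen set, while the order of the sets for Tnfrsf1b and Tnfrsf9 depended on the Foxp3 cells of spleen A. Cd27, the receptor for CD70 that supports memory T cells, had a mean of 148.9 CPM in SI against 971, 593 and 612 CPM in spleen A, B and C. The median cell held 8.08 CPM in SI and 973, 496.4 and 432.6 CPM in the spleen sets. At least 10 reads of Cd27 were present in 36.8% of SI cells (95% exact interval 28.7% to 45.5%) and in 91%, 78.6% and 85.2% of spleen cells. The SI interval lay below all 3 spleen intervals, the lowest of which began at 71%. SI cells did not lack the transcript altogether. A further 45.6% of them had 1 to 9 Cd27 reads, against 7.52% to 19.3% in the spleen sets, so that at least 1 read was found in 82.4% of SI cells. The log2 ratio of SI over the spleen sets weighted equally was -2.28 (-2.70, -1.99 and -2.03 against A, B and C).

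Cd28, which binds CD80 and CD86 and gives the second signal for T-cell activation, had means of 282.9 CPM in SI and 842, 1003 and 915 CPM in spleen A, B and C. The median cell held 18.3 CPM in SI and 647 to 813 CPM in the spleen sets. At least 10 reads were present in 49.3% of SI cells (interval 40.6% to 58%) and in 90.2%, 91% and 91% of spleen cells, so that the spleen sets hardly differed among themselves. The log2 ratio was -1.70 (-1.57, -1.82 and -1.69). In SI the cells were split for this gene, since 61% had any Cd28 read and the cells with at least 10 reads had a median of 465.3 CPM.

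Tnfrsf1b encodes TNFR2, the TNF receptor without a death domain. Its means were 811 CPM in SI and 1102, 885 and 331.4 CPM in spleen A, B and C. At least 10 reads were found in 89.7%, 84.2%, 77.2% and 54.9% of cells. Spleen C stood below the others in both. The SI mean lay between those of the spleen sets (log2 ratios of -0.44, -0.13 and 1.29), while the SI share was the highest. The intervals of the shares in SI and spleen A overlapped. When cells with a Foxp3 read were left out, Tnfrsf1b was found in 89.8% of SI cells and 62.5% of spleen A cells. Among cells with fewer than 10 Foxp3 reads the shares were 89.3% (interval 82.7% to 94%) and 67.2% (interval 54% to 78.7%), which do not overlap. Tnfrsf9 encodes 4-1BB, a receptor induced by activation. Spleen A had a mean of 1028 CPM, against 283.2 CPM in SI, 360.7 CPM in spleen B and 359.6 CPM in spleen C. The share with at least 10 reads was 60.9% in spleen A and 41.9%, 40.7% and 36.1% in the other 3 sets, whose intervals overlapped. Without cells with a Foxp3 read, the share in spleen A was 39.6%.

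**Figure D1:**
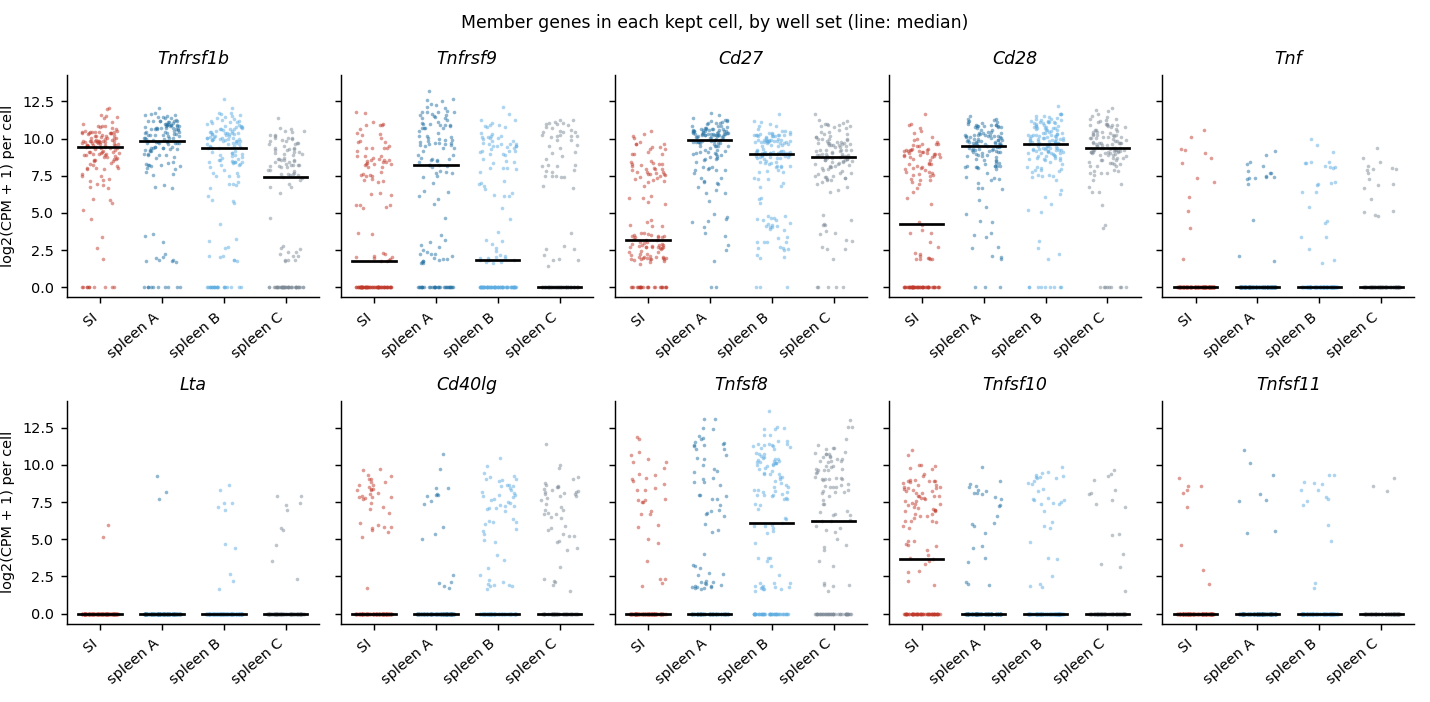
Expression of the 10 members in each kept cell as log2(CPM + 1), 1 panel per gene and 1 column of points per well set (SI and spleen A, B and C), with a line at the median. The median of Cd27 and of Cd28 lies lower in SI than in any spleen set, the median of Tnfsf10 is above 0 in SI alone, and that of Tnfsf8 is above 0 in spleen B and C alone.

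Among the ligands, Tnfsf10 was higher in SI and Tnfsf8 lower. Tnfsf10 encodes TRAIL, whose death receptor in the mouse is encoded by Tnfrsf10b. The mean was 162.6 CPM in SI and 38.5, 67.3 and 33.2 CPM in spleen A, B and C. At least 10 reads were present in 47.1% of SI cells (interval 38.4% to 55.8%) and in 15%, 17.9% and 9.84% of spleen cells, with no overlap between the SI interval and those of the spleen sets. The log2 ratio was 1.79 (2.05, 1.26 and 2.26). Among cells with at least 10 reads the median was 242.6 CPM in SI and 243.3 to 322.2 CPM in the spleen sets, so the sets differed in how many cells had the transcript and not in a higher level per such cell in SI.

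Tnfsf8 encodes CD30 ligand. Its means were 154.6 CPM in SI and 544.1, 783 and 593 CPM in spleen A, B and C, a log2 ratio of -2.04 (-1.81, -2.33 and -1.93). At least 10 reads were present in 20.6% of SI cells (interval 14.1% to 28.4%), 30.8% of spleen A (interval 23.1% to 39.4%), 54.5% of spleen B and 54.9% of spleen C. The intervals of SI and spleen A overlapped in this share, although the means differed. Without cells with a Foxp3 read, the share was 19.7% in SI and 56.3% in spleen A, and the log2 ratio over the 3 spleen sets was -2.65. Among cells with fewer than 10 Foxp3 reads the intervals were clear of each other, at 14% to 28.6% in SI and 42.4% to 68.5% in spleen A. A few cells held much of the signal, with 55.3% of all SI Tnfsf8 reads in 5 cells, against 31.1% to 44.4% in the spleen sets.

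Cd40lg, the ligand by which helper T cells activate B cells, had means of 75.1 CPM in SI and 35.5, 85.7 and 101.2 CPM in spleen A, B and C. The shares were 25.7%, 9.02%, 28.3% and 30.3%, with spleen A below the other sets. Without cells with a Foxp3 read the share in spleen A was 22.9%. The other 3 ligands were sparse in all sets. Tnf, the prototype inflammatory cytokine, had at least 10 reads in 8.09% of SI cells and 11.3% to 12.4% of spleen cells, with overlapping intervals. Its mean of 40.5 CPM in SI was above the spleen means of 28.4 to 38.2 CPM, but 5 cells held 78% of the SI reads. Tnfsf11, which encodes RANKL, was found at this level in 4.41% of SI cells and in 6.02%, 8.97% and 2.46% of cells of spleen A, B and C. Lta, which encodes lymphotoxin alpha, was found in 2 SI cells and in 3, 6 and 7 cells of the spleen sets. With 29 SI reads in all, no difference in Lta can be read at this depth.

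**Figure D2:**
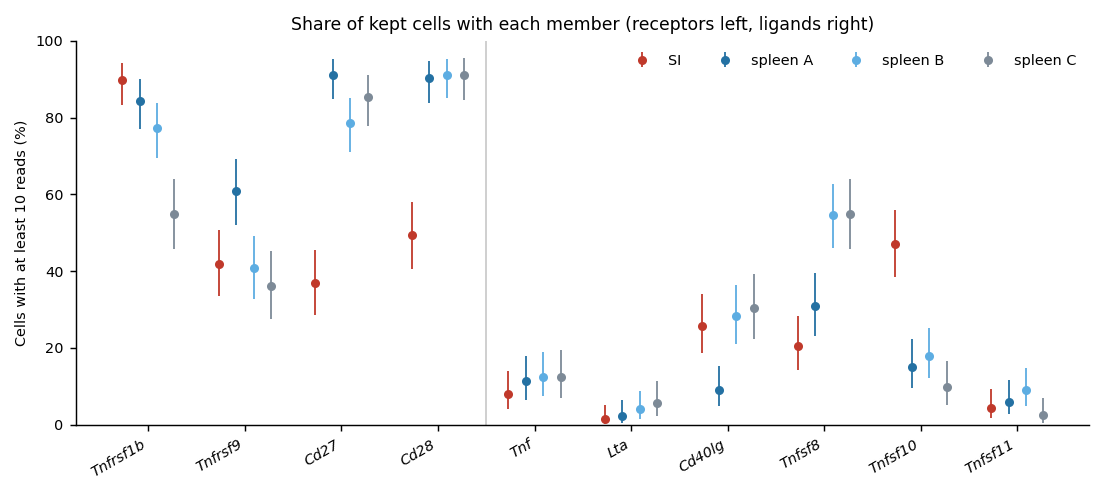
Share of kept cells with at least 10 reads of each member (y axis, percent) by gene and well set, receptors to the left of the grey line and ligands to the right. Bars are 95% exact binomial intervals, which cover counting error only, and the SI interval lies clear of every spleen interval for Cd27, Cd28 and Tnfsf10.

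A rule of size was applied in place of a test. A gene was called when its mean, as log2(CPM + 1), differed by at least 1 (2-fold) in the same direction from all 3 spleen sets, among genes with a mean of at least 10 CPM in some set. The pseudocount of 1 CPM understates ratios of low genes. Lta missed the limit on the mean, which left 9 members. Of these, 1 was called higher in SI (Tnfsf10), where 5.18% of all 9264 genes were, and 3 were called lower (Cd27, Cd28 and Tnfsf8), where 10.9% of all genes were. The median log2 ratio was -0.62 over the 9 members and -0.24 over all genes. With pooled size factors in place of total reads, the median of all genes moved to -0.04 and the same 4 members were called. Against spleen C alone, labelled p2 like the SI cells, Tnfrsf1b joined Tnfsf10 among the higher members (10.1% of all genes). The 3 lower members were the same (19.7% of all genes).

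Differences between spleen sets of this size were also present. Between spleen A and B, Tnfrsf9 was called higher in A (log2 ratio 1.51, with 4.66% of all genes) and Cd40lg lower (-1.25, with 5.54% of all genes). Between spleen C and B, Tnfrsf1b and Tnfsf11 were called lower in C (-1.42 and -1.39, with 6.76% of all genes), Tnfsf10 lay at -0.999, just short of the limit, and no member was called higher (6.81% of all genes). When cells with a Foxp3 read were left out, which left 48 cells in spleen A, neither Tnfrsf9 nor Cd40lg was called between A and B. Tnfsf10 and Tnfsf11 were called instead. Both were sparse, with at least 10 reads in 15% and 6.02% of all kept spleen A cells. The shares of all genes above are those of the full sets, and none stands beside these calls. Among cells with fewer than 10 Foxp3 reads, Tnfsf10 had means of 22 CPM in spleen A and 67.9 CPM in spleen B. Tnfsf11 went the other way, with 69.4 CPM in A and 24 CPM in B. The calls of Tnfsf10, Cd27, Cd28 and Tnfsf8 in SI were also made in cells without a Foxp3 read.

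**Figure D3:**
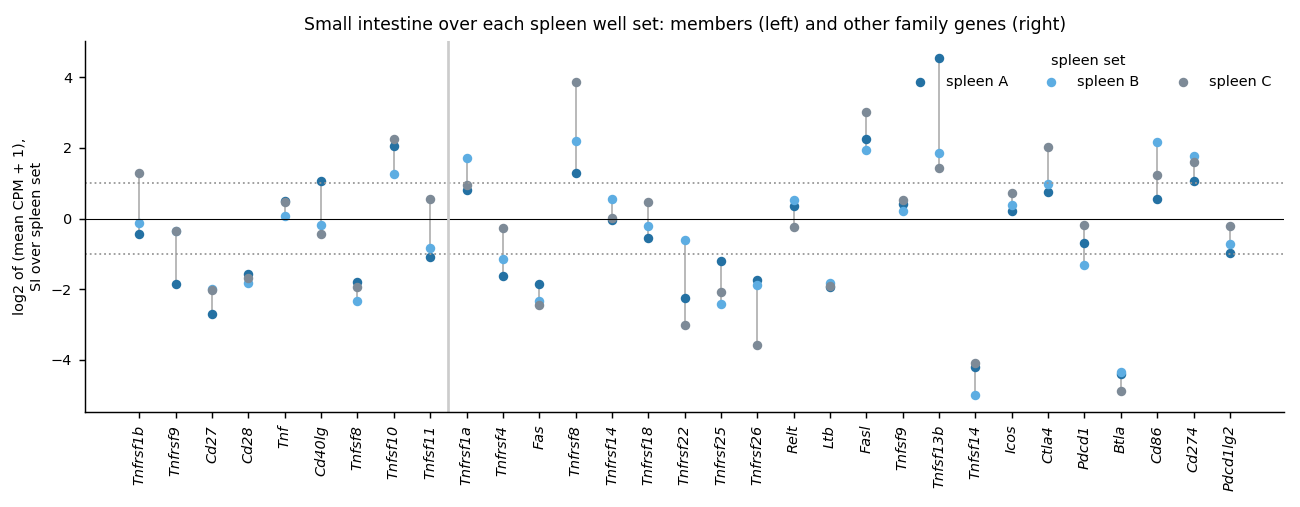
Log2 ratio of (mean CPM + 1) in SI over each of the 3 spleen sets (y axis, 1 point per spleen set) for the 9 members with enough reads, to the left of the grey line, and for other family genes that passed the same limit. Dotted lines mark the 2-fold rule, and all 3 points lie below it for Cd27, Cd28 and Tnfsf8 and above it for Tnfsf10.

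The receptors were then counted per cell. On average 2.18 of the 4 receptors had at least 10 reads in an SI cell (SD over cells 1.01), against 3.26 (SD 0.834), 2.88 (SD 0.798) and 2.67 (SD 0.983) in spleen A, B and C. All 4 were present together in 11% of SI cells (interval 6.31% to 17.5%) and in 47.4%, 21.4% and 23% of spleen cells. The intervals of SI, B and C overlapped. All 4 were present in 14.6% of the spleen A cells without a Foxp3 read (interval 6.07% to 27.8%), below the 17.6% and 21.9% of such cells in spleen B and C and overlapping the interval around 10.2% in SI. The commonest receptor pattern in SI was Tnfrsf1b with none of the other 3, in 19.9% of cells, which was seen in 2.07% of cells of spleen B and in no cell of spleen A or C. The commonest pattern in spleen A was all 4 receptors, which rested on the cells with a Foxp3 read, since 54.2% of its other cells held 3 receptors. In spleen B it was Tnfrsf1b, Cd27 and Cd28 without Tnfrsf9 (33.8%), and in spleen C 23% of cells had that pattern and 23% all 4. Without cells with a Foxp3 read, the mean number of receptors was 2.73 in spleen A and 2.16 in SI.

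The ligands showed no such gap. A cell had on average 1.07 of the 6 ligands in SI (SD 0.84), 0.744 in spleen A (SD 0.813), 1.26 in spleen B (SD 1.04) and 1.16 in spleen C (SD 0.909). No ligand was found in 26.5% of SI cells, 45.9% of spleen A, 26.2% of spleen B and 24.6% of spleen C. The spleen A cells without a Foxp3 read held 1.15 ligands on average and 22.9% of them had none, beside 1.09 and 26.8% in SI. The mean number of all members per cell was 3.25 in SI and 4.01, 4.14 and 3.83 in the spleen sets. It was 3.11, 3.94, 4.02 and 3.82 after cells had been thinned to 200000 reads, which left out 5 SI cells and 5, 8 and 10 spleen cells of lower depth.

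**Figure D4:**
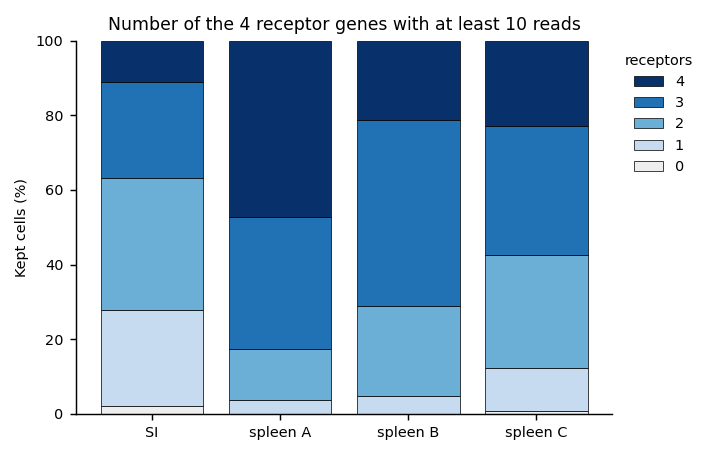
Share of kept cells (y axis, percent) by the number of the 4 receptor genes with at least 10 reads, 1 stacked bar per well set. The darkest segment, all 4 receptors, covers 11% of SI cells and 47.4% of spleen A (14.6% when its cells with a Foxp3 read are left out, not drawn), and cells with 1 receptor make up 25.7% of SI.

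Pairs of members were compared with the product of their shares, the joint share that independent genes would have. Of the 45 pairs, 4 lay above the product in all 4 sets and 3 below it in all 4. Sparse pairs can reach this with hardly a joint cell. Lta with Cd40lg, above throughout, had as few as 1 such cell in a set, and Lta with Tnfsf11, below throughout, as few as 0. Most joint shares of these 4 and 3 pairs were near the product. Over the 180 pair and set combinations the exact interval of the joint share left out the product in 3. The 3 were Tnfsf8 with Tnfsf11 in SI (4.41% of cells against 0.908%), Tnfsf8 with Tnfsf10 in SI (4.41% against 9.69%) and Tnfrsf1b with Tnfsf8 in spleen A (18% against 26%). The first of these was the one that remained without cells with a Foxp3 read. Both genes of a pair are read in the same cell and share its depth. Among the 5 members found in at least 10% of cells of every set, 1 of 10 pairs lay above the product throughout (Tnfrsf1b with Cd27) and 1 below (Cd27 with Tnfsf8). Neither did so without cells with a Foxp3 read or when at least 1 read counted, and Tnfrsf1b with Cd27 did not after thinning to 200000 reads. Over all pairs of genes found as widely, 15.4% lay above and 3.21% below. No such share stands beside the counts over the 45 pairs or over the 180 combinations.

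Tnfsf11 was found with Tnfsf8 in all 6 SI cells that had it, and in 6 of 8, 7 of 13 and 3 of 3 cells of spleen A, B and C. Tnfsf8 was found in 20.6% of all SI cells and in 30.8%, 54.5% and 54.9% of all cells of spleen A, B and C. The 7 of 13 in spleen B was therefore no excess, and spleen C had only 3 such cells. The Spearman correlation over cells was 0.42 in SI and 0.27, 0.03 and 0.22 in the spleen sets. The correlation of Tnfrsf1b with Tnfsf8 differed in sign between the tissues. In SI it was 0.27, and 27 of the 28 Tnfsf8 cells also had Tnfrsf1b. Tnfrsf1b was found in 89.7% of all SI cells, and the interval of the SI joint share held the product. In the spleen, Tnfsf8 was found in 21.4%, 47.3% and 41.8% of cells with Tnfrsf1b and in 81%, 78.8% and 70.9% of cells without it, with correlations of -0.45, -0.31 and -0.16. Without cells with a Foxp3 read, the correlations were 0.25 in SI and -0.33, -0.21 and -0.10 in the spleen sets. The difference between tissues was not tested, since each tissue is 1 sample.

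The spleen sets of p1 held enough Foxp3 cells to describe the members beside them. Cells with at least 10 Foxp3 reads had more Tnfrsf1b and Tnfrsf9 and less Tnfsf8 and Cd40lg than the other cells of the same set. In spleen A, 72 such cells stood beside 61 others, and in spleen B 19 beside the rest of the set. Tnfsf8 was present in 9.72% of Foxp3 cells and 55.7% of the others in spleen A, and in 5.26% and 61.9% in spleen B. Tnfrsf1b was present in 98.6% and 67.2% in spleen A and in 100% and 73.8% in spleen B. Tnfrsf9 was found in 83.3% and 34.4%, and in 63.2% and 37.3%. Cd40lg was found in 1.39% and 18%, and in 10.53% and 31%.

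By the 2-fold rule applied in both sets, 2 of the 10 members were called higher in Foxp3 cells (2.71% of all genes) and 2 lower (4.97% of all genes). The log2 ratios were 1.27 and 1.35 for Tnfrsf1b, 1.61 and 1.16 for Tnfrsf9, -3.59 and -1.43 for Cd40lg and -3.84 and -7.40 for Tnfsf8. The last value rests on 19 cells, of which 1 had at least 10 Tnfsf8 reads. Cd27 was 0.60 and 0.71 higher on this scale and Cd28 0.15 and 0.40, both short of the rule. In SI and spleen C the 5 Foxp3 cells of each set had Tnfrsf1b throughout, a number too small for more.

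**Figure D5:**
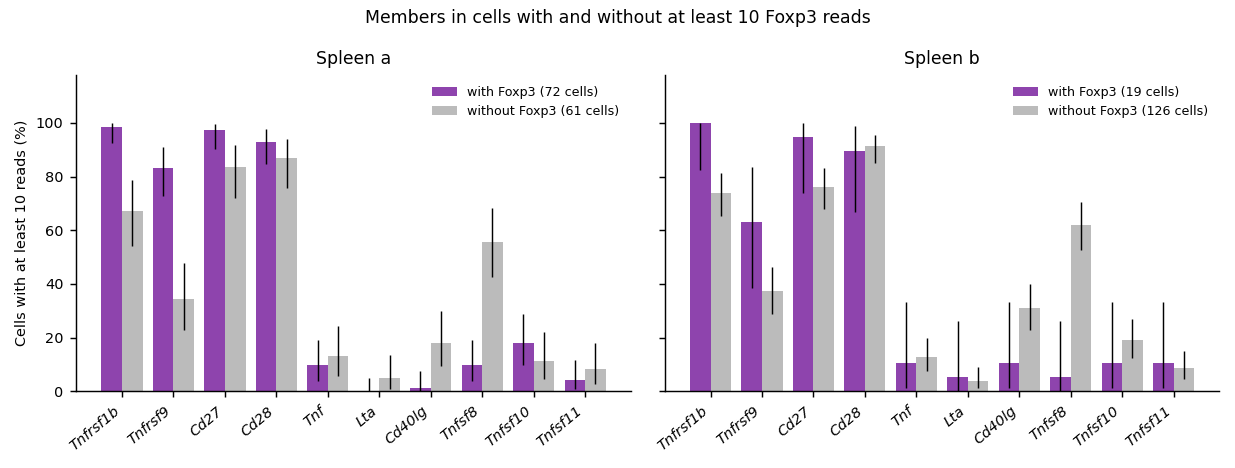
Share of cells with at least 10 reads of each member (y axis, percent) among cells with (purple) and without (grey) at least 10 Foxp3 reads, in spleen A (72 and 61 cells) and spleen B (19 cells and the rest of the set), with 95% exact binomial intervals. The widest gap is that of Tnfrsf9 in spleen A, at 83.3% against 34.4%, and that of Tnfsf8 in spleen B, at 5.26% against 61.9%.

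Il10 itself went with 1 member. Tnfrsf1b was present in 90.5% of cells with at least 10 Il10 reads and 41.2% of the other 17 cells of spleen A. The shares were 83.2% and 50% in spleen B (26 other cells) and 69.9% and 32.7% in spleen C (49 other cells). The correlations over cells were 0.33, 0.25 and 0.42. Foxp3 cells were not left out here, and 98.6% of spleen A cells with at least 10 Foxp3 reads had Tnfrsf1b. Their part in the difference was not tested. By the 2-fold rule in all 3 spleen sets, Tnfrsf1b was the 1 member called higher (2.06% of all genes) and none was called lower (0.985% of all genes). In SI, all but 6 cells had at least 10 Il10 reads, Tnfrsf1b was present in 90.8% of them and in 4 of the other 6, and the correlation was 0.01.

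Some genes outside the members varied alike from cell to cell. For each of the 5 widely found members, genes were ranked by the mean of the 4 Spearman correlations within sets, among 5693 other genes. Tnfrsf9 went most with Eif5a, a translation factor (mean 0.43, from 0.38 to 0.48). Next were Srm, an enzyme of polyamine synthesis (0.33, from 0.23 to 0.47), and the chaperone gene Hsp90ab1 (0.32, from 0.14 to 0.46). Tnfrsf1b went with Prdm1, which encodes the repressor Blimp-1 (0.32), Ctla4 (0.32) and Sdcbp2 (0.32). Prdm1 reached 0.34 to 0.52 in the spleen sets and 0.03 in SI. Tnfsf8 went with Tbc1d4 (0.32, from 0.26 to 0.38), Prelid2 (0.28, from 0.06 to 0.48) and Srgn (0.25, from 0.11 to 0.44). Correlations were weak for Cd27, led by Ptp4a3 (0.23), Gimap7 (0.23) and Trim8 (0.20), and for Cd28, led by Esco1 (0.19), Slfn1 (0.16) and Samhd1 (0.15). Across the ranked genes the 99th percentile of the mean correlation was 0.24 for Tnfrsf9, 0.20 for Tnfrsf1b, 0.13 for Tnfsf8 and Cd27 and 0.10 for Cd28.

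Cells called S or G2M, which the kept set leaves out, were read beside the G1 cells. In the spleen, such cells (47, 39 and 57 of spleen A, B and C) had lower Tnfsf8 (252.1 CPM against 646 CPM in 400 G1 cells, log2 ratio -1.35) and lower Tnfsf10 (21.4 CPM against 47.3 CPM, -1.11), where 4.88% of all genes were 2-fold lower. No member was 2-fold higher, where 6.98% of all genes were. Tnfsf8 lay at -1.18, -1.59 and -1.20 within spleen A, B and C, and Tnfsf10 at -1.23, -0.58 and -1.63. The share of spleen cells with at least 10 reads was 35% against 46.75% for Tnfsf8, but 14% against 14.5% for Tnfsf10. In SI, 35 cells called S or G2M had a log2 ratio of -0.46 for Tnfsf8 and -0.58 for Tnfsf10, short of the rule. Cd40lg was 24.9 CPM in them against 75.1 CPM in G1 cells (-1.55), Tnf was 10.9 CPM against 40.5 CPM (-1.80) and Tnfsf11 4.88 CPM against 15.4 CPM (-1.48), where 10.1% of all genes were 2-fold lower. The share of SI cells with at least 10 reads was 22.9% against 25.7% for Cd40lg and 2.86% against 4.41% for Tnfsf11. For Tnf it went the other way, at 11.4% against 8.09%. No member with a mean of at least 10 CPM was 2-fold higher, where 14.6% of all genes were. The 4 receptors were within 2-fold of G1 cells in both tissues.

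The known partners of the members were then looked for in the same cells. Cd40, the receptor of Cd40lg, and Tnfrsf11b, a decoy receptor of RANKL, had no read in any kept cell, which allows a share of up to 2.07% to 2.46% of the cells of a set. Cd70, the ligand of Cd27, and Tnfrsf11a, the receptor of RANKL, had means of at most 0.206 CPM. Tnfrsf8, which encodes CD30, the receptor of Tnfsf8, was higher in SI than in each spleen set, at 18.2 CPM in SI and 6.84, 3.20 and 0.306 CPM in spleen A, B and C. It had at least 10 reads in 14.7% of SI cells and in 9.02%, 2.76% and 0.82% of spleen cells, so that the SI interval (9.22% to 21.8%) overlapped that of spleen A. Tnfsf9, the ligand of 4-1BB, was found at 46.5 CPM in SI and 32.1 to 40.3 CPM in the spleen. Tnfrsf1a, the TNF receptor with a death domain, was at 92.1 CPM in SI and 27.2 to 52.04 CPM in the spleen. Tnfrsf10b was at most 4.04 CPM. Of the ligands of CD28, Cd86 reached 38.3 CPM in SI and 7.67 to 25.5 CPM in the spleen, and Cd80 at most 2.16 CPM.

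Of 25 other genes of the TNF receptor superfamily, 10 passed the limit on the mean. Among all genes, 5.18% were called higher in SI and 10.9% lower. In SI 1 was called higher (Tnfrsf8, log2 ratio 2.11) and 3 lower: Fas, the receptor of FasL (-2.23), Tnfrsf25, which encodes DR3 (-1.99), and Tnfrsf26 (-2.66). Of 12 other ligands 5 passed, with 2 called higher and 2 lower. The higher were Fasl, a death ligand of cytotoxic T cells (431.6 CPM in SI against 52.8 to 111.5 CPM, log2 ratio 2.34), and Tnfsf13b, which encodes the B cell survival factor BAFF (2.12). The lower were Ltb, which encodes lymphotoxin beta (57.6 CPM against 207.7 to 224.2 CPM, -1.89), and Tnfsf14, which encodes LIGHT (-4.49). The median log2 ratio was -0.63 over the 10 receptors and 0.37 over the 5 ligands, beside -0.24 over all genes.

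Of 9 genes of the CD28 family and its ligands 7 passed. Btla, an inhibitory receptor, was called lower (14.5 CPM in SI against 316.5 to 455.4 CPM in the spleen, -4.57), and Cd274, which encodes PD-L1, higher (82.8 CPM against 23.5 to 39.4 CPM, 1.45). Of 14 genes of TNF receptor signalling, all of which passed, Birc2, an ubiquitin ligase of the receptor complex, was called higher (1.37) and Fadd, the death receptor adaptor, lower (-2.22). The other 12, among them Traf1, Traf2, Ripk1 and Casp8, were not called. That is 1 of 14 each way, where 5.18% of all genes were called higher and 10.9% lower. Of the context genes read beside the members, Gzmb (3.68), Nfkbia (1.35) and Nr4a1 (1.45) were called higher in SI, and Ikzf2 (-1.97), Ccr7 (-7.98) and Cxcr5 (-8.17) lower.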

How the data were processed

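SMART-seq2 libraries of single IL-10eGFP+ CD4+ T cells were analysed from 2 tissues. The authors deposited read counts per gene, 1 column per cell, and no column was left unused. The submitters' processing notes name STAR and mm10, whereas the paper's methods name another build. The counting tool and annotation are not given in the sources used here, so positions are RefSeq's (GRCm38.p6). Genes in the count tables were matched by symbol.

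Per tissue, cells whose log reads or log genes lay over 3 median absolute deviations below the median were removed (50 cells), then 178 cells called S or G2M (cyclone, scran 1.30.0, R 4.3.3). CPM was computed here over gene rows without the eGFP row (0.00979% of reads). SI was compared with the mean of 3 spleen sets weighted equally. With 1 sample per tissue no p-value was computed. Intervals are 95% exact binomial (Clopper-Pearson) over cells. They cover counting error alone, because cells of 1 sample are not replicates of a tissue. Reads amplified by PCR do not each stand for 1 molecule. Doublets were not called, as wells received single cells. Calculations were tested on simulated data (Python 3.11.15, pandas 2.3.3, scipy 1.17.1).

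Named genes were all members, partners, pathway genes past the 2-fold rule, context genes, and the 3 genes most alike each widely found member. The members and lists were chosen with earlier results of these data known. Alternatives changed the cells kept, pseudocount, scaling, read threshold, depth, extreme cells and spleen set.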

Additional observations from a re-analysis of the deposited data

Results flagged for a closer look

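The eGFP reporter row, which entered no comparison, had reads in more cells than the limit for no detection. At least 1 eGFP read was present in 75.7% of SI cells, 63.9% of spleen A, 60% of spleen B and 46.7% of spleen C, where 0 cells would have allowed shares of up to 2.07% to 2.46%. The cells had been sorted for eGFP, so detection above that limit was given by the design. The other cells of each set had no eGFP read.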

How the results depend on the processing

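Within the settings tried, no member's SI difference that passed the 2-fold rule changed direction, and Tnfsf10, Cd27, Cd28 and Tnfsf8 were called in all of them. Lta joined the lower members in 4 settings (S and G2M cells kept, all deposited cells, no cells with a Foxp3 read, no limit on the mean). The number of members called higher in SI was 1 except against spleen C alone, where it was 2 with Tnfrsf1b added. The number called between spleen C and B was 2, and 4 with S and G2M cells kept or with all deposited cells (Lta and Tnfsf10 added), and 1 with a pseudocount of 10 CPM (Tnfrsf1b). Pairs below the product in all 4 sets numbered 3, and 1 when at least 1 read counted. Leaving out cells with a Foxp3 read, chosen for pairs after seeing the data, gave 4 pairs above and 2 below, but 2 of the 4 were other pairs (Tnfrsf1b with Cd40lg and Tnfsf8 with Tnfsf11, in place of Tnfrsf1b with Cd27 and Cd40lg with Tnfsf8). The causes were not tested. Of 200 shares of cells recomputed, 19 left the interval of the main share, 15 of them when at least 1 read counted. The log2 ratio of Tnf, 0.33, was -0.05 with all deposited cells. No paired analysis was possible because the labels give no replicate numbers that groups share. After thinning to 200000 reads, each of the 40 member shares lay within the interval of the main share.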
